A study of Canis lupus familiaris with 39 samples.

Results

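The 10 genes examined here in normal canine tissues belong to the natriuretic peptide system and to the cardiac transcription factor network: NPPA, NPPB, NPPC, NPR3, CORIN, NKX2-5, TBX5, TBX20, GATA4 and HAND2. A gene was taken as measured where a probeset of the Affymetrix Canine Version 2.0 array, a group of short probes summarised to 1 value, carried its symbol and no other. This gave 14 probesets of the 42860 on the array, and 9 of the 10 genes had at least 1: NPR3 had 4, NKX2-5 and HAND2 had 2 each, and NPPB, NPPC, CORIN, TBX5, TBX20 and GATA4 had 1 each. Probesets of 1 gene are numbered by their mean over the 39 arrays, the highest first. NPPA, the atrial peptide, had 0 probesets under its symbol or gene identifier and was not analysed here, although it lies next to NPPB in the gene order of the RefSeq annotation (assembly UU_Cfam_GSD_1.0). RNA came from heart, skeletal muscle, brain (cerebrum), lung, spleen, lymph node, kidney, liver, pancreas and jejunum of 4 dogs without disease, untreated as far as the labels say, which were beagles or mixed breed, of both sexes, and 3 months to 6 years old. There were 39 arrays, 3 of pancreas and 4 of each other tissue. The labels do not tie an array to a dog, and they do not say which chamber of the heart was sampled.

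The natriuretic peptides are hormones that lower blood pressure and blood volume. In mammals the atrial and B-type peptides are made by heart muscle cells, released when the wall is stretched, and freed from their precursors by proteases of which corin is the membrane-bound one of the heart. They bind NPR1, while the C-type peptide binds NPR2, and both receptors make cyclic GMP; NPR3 has no such enzyme and removes all of the peptides from the circulation. NKX2-5, GATA4, TBX5, TBX20 and HAND2 are DNA-binding proteins that form the heart in the embryo, and several of them are known to act on the genes of the atrial and B-type peptides.

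All values are log2 RMA values as deposited, which ran from 2.61 to 14.74 over all probesets, with array medians between 3.95 and 4.11, so that a value near 4 is at the level of most probesets. Pearson's r between arrays of a tissue, across probesets, was 0.955 to 0.985 in heart and lowest in skeletal muscle (0.889 to 0.962). In a bulk tissue, fewer cells of a type and less RNA per cell cannot be told apart. The labelled tissue was checked against listed markers: all 9 cardiomyocyte genes with a probeset were higher in heart, with array medians of 12.14 to 12.63, against 4.95 to 8.88 in skeletal muscle. Of the same 9, 4 were also higher in skeletal muscle and 2 were lower there. The 4 are TTN, with a mean of 12.77 there against 12.27 in heart, MYH7 (12.52), ACTN2 (11.86) and PLN (10.14). All 3 ventricular genes with a probeset were higher in heart. MYL2, which slow skeletal fibres also make, was at 13.47 ± 0.17 (SD, n = 4) in heart and at a mean of 13.08 in skeletal muscle. IRX4 was only 1.24-fold higher, at 3.96 ± 0.16 in heart, the level of most probesets. Of 8 skeletal muscle fibre genes, 0 were higher and 2 lower in heart, where the list's array medians were 3.75 to 3.98. The listed epicardial and mesothelial genes had array medians of 3.60 to 3.85 in heart.

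For each probeset, limma set the mean of a tissue against the 9 others, averaged with equal weight, in what is named here the tissue's contrast, and a difference was called at a false discovery rate of 0.001 over all probesets. In the heart contrast, 7 of the 14 probesets were higher and 0 were lower. They belong to 5 of the 9 genes: CORIN, HAND2, NKX2-5, NPPB and GATA4. The same contrast called 7.47% of all probesets higher and 6.55% lower. Above 10-fold in heart stood 3 of the 14, the probeset of CORIN and both of HAND2, a step passed by 0.887% of all probesets. For the same 3, none of the 9 other tissues was more than 3-fold up in the contrast of that tissue, as was so for 0.219% of all probesets. For 5 of the 14, those of CORIN, HAND2 and NKX2-5, each of the 4 heart arrays lay above all of the 35 other arrays, which was so for 1.03% of all probesets. When each array was shifted to an equal median of listed housekeeping genes, which moved heart values by −0.98 on average, 4 of the 14 were higher in heart: those of CORIN and HAND2 and 1 of NKX2-5, but not that of NPPB (0.70, adjusted p = 0.038). That shift follows the gene in the middle of the list. Gene by gene, the listed genes had a median difference of only −0.14 in heart.

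**Figure D1:**
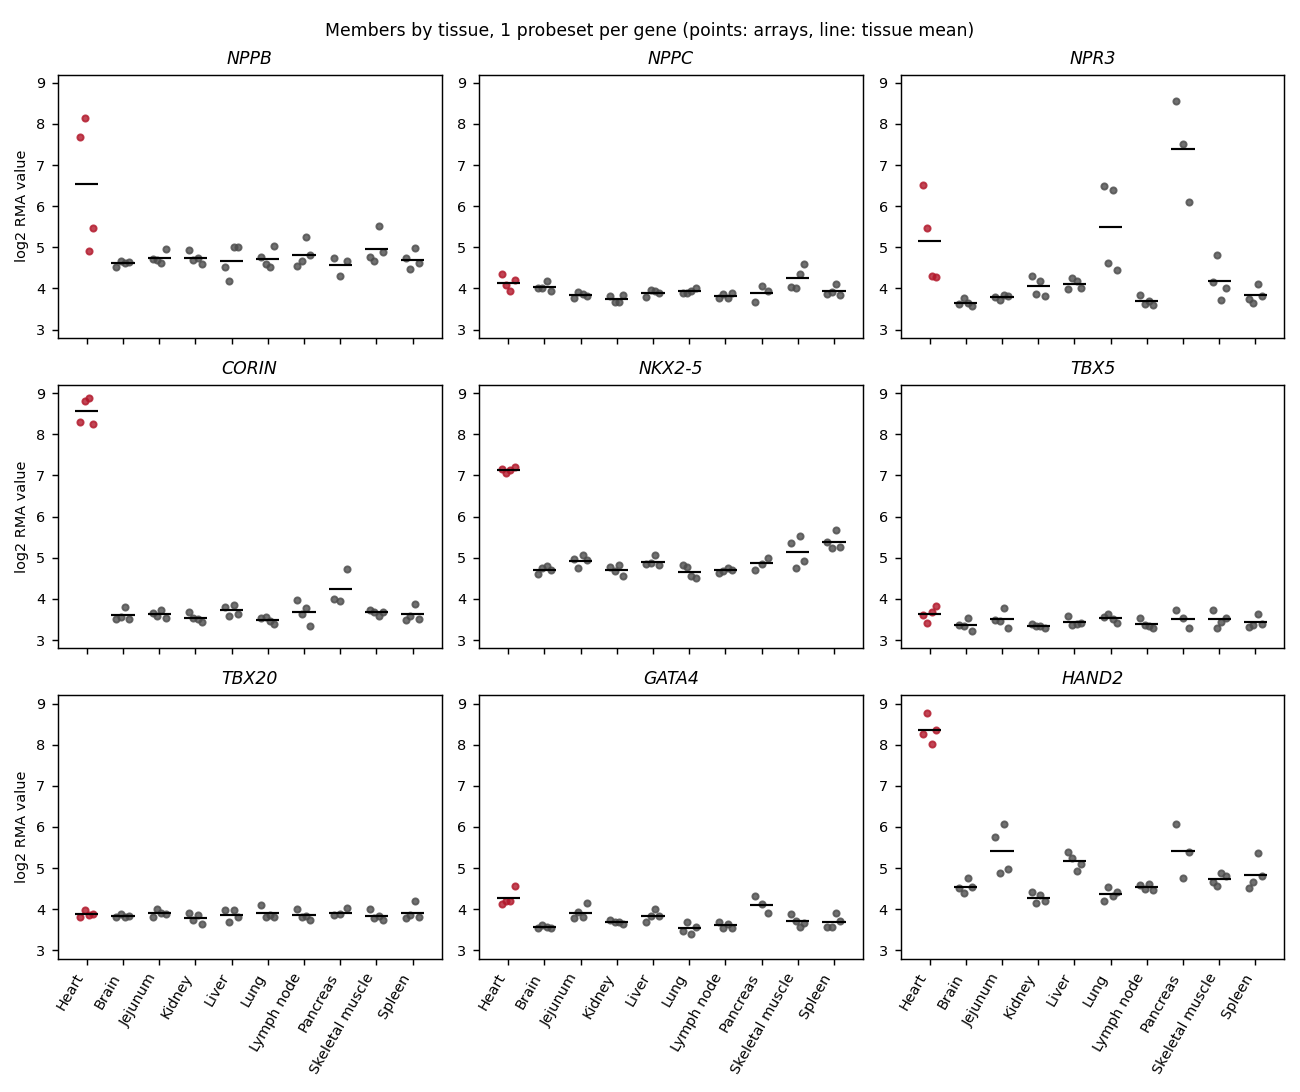
Log2 RMA value (vertical axis) of the 9 measured genes on 39 arrays by tissue, heart in red, each gene by its probeset 1; points are arrays and lines are tissue means. The 4 heart arrays of CORIN, NKX2-5 and HAND2 stand clear of all others, those of NPPB lie far apart from each other, NPR3 is highest in pancreas, and TBX5 and TBX20 lie near the same level in every tissue.

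Among the peptides, NPPB, the precursor of the B-type peptide, had values of 7.67, 8.15, 4.91 and 5.47 on heart arrays 1 to 4, against a range of 4.17 to 5.53 on the 35 other arrays. Heart arrays 1 and 2 lay above every other array, and heart arrays 3 and 4 lay within the range of the other tissues. The mean was 6.55 ± 1.60 in heart (SD, n = 4) and 4.73 over the 9 other tissue means, a fold change of 3.54 (difference 1.82, SE 0.29, adjusted p = 8.26e-06 from limma). The SD in heart compares with 0.07 to 0.41 in the other tissues, whereas the fit uses 1 variance for all tissues, so that its error is small against the spread in heart. Left out in turn, the heart arrays gave differences between 1.29 and 2.37, and each was called.

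The moderated F test, which asks whether a probeset differs anywhere among the 10 tissues, called 10 of the 14 probesets and 54.6% of all probesets. Of the 10, 4 belong to NPR3. By gene, each with its probeset 1, the F test called 5 of 9, near the share of all probesets. NPPB missed it (adjusted p = 0.00148). NPPB passed in 4 of 47 alternative settings, among them those without heart array 3 (adjusted p = 6.38e-06) or heart array 4 (adjusted p = 0.00029). With 1 array left out, its adjusted p reached up to 0.0304. In the comparison of tissues by pairs, adjusted over all probesets and 45 pairs, 64 of 405 pairs were called over the 9 genes with 1 probeset each (14% of all pairs of all probesets), 43 of them among the 81 that include heart (13.5% of such pairs over all probesets). NPPB was higher in heart than in 8 of the 9 other tissues. NPPB was not separated from skeletal muscle, next in order at 4.96 (difference 1.59, SE 0.39, adjusted p = 0.00201). This pair was called in 3 of 47 alternative settings, among them those without heart array 3 (2.13, adjusted p = 8.91e-06) or heart array 4 (1.95, adjusted p = 0.000238). With each array left out in turn, the difference ran from 1.05 to 2.13.

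The split of the heart arrays was looked for in genes listed as atrial. MYL4, the atrial essential light chain of myosin, had 9.73 and 10.32 on heart arrays 1 and 2 and 5.25 and 6.37 on heart arrays 3 and 4, against a highest value of 6.36 elsewhere. As with NPPB, arrays 1 and 2 were high and arrays 3 and 4 were at or near the other tissues. MYL7, the atrial regulatory light chain, did not follow this order: it had 11.22, 12.37, 11.41 and 12.11, 208-fold above the other tissues (adjusted p = 3.01e-23 from limma). GJA5, a gap junction protein of atria, conduction system and arteries, had 7.74, 5.89, 6.14 and 6.85, with a higher mean in lung (9.34). KCNJ3, KCNA5, MYBPHL and BMP10 were not called and lay between 3.53 and 4.23 on the heart arrays. In all, 3 of the 7 atrial genes with a probeset were higher in heart. The ventricular list had nearly level array medians of 13.25, 12.96, 13.04 and 13.20. These are the values of 1 gene, MYL3, which also had a mean of 12.27 in skeletal muscle, so they do not measure ventricular content. IRX4, also on the list, had 3.87, 4.19, 3.86 and 3.91, near the array medians of all probesets. The median of the fibroblast list was 9.79, 11.52, 8.69 and 8.41, higher on arrays 1 and 2 as well. The fibroblast genes did not spread alike in heart: the SD was 1.55 for COL1A1 and 1.65 for COL3A1. It was only 0.36 for DCN, 0.47 for LUM and 0.40 for PDGFRA. The median of the endothelial list ran from 7.73 to 8.43, lowest on array 1 and highest on array 4. The part of chamber or of other cells in the NPPB values was not tested.

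**Figure D2:**
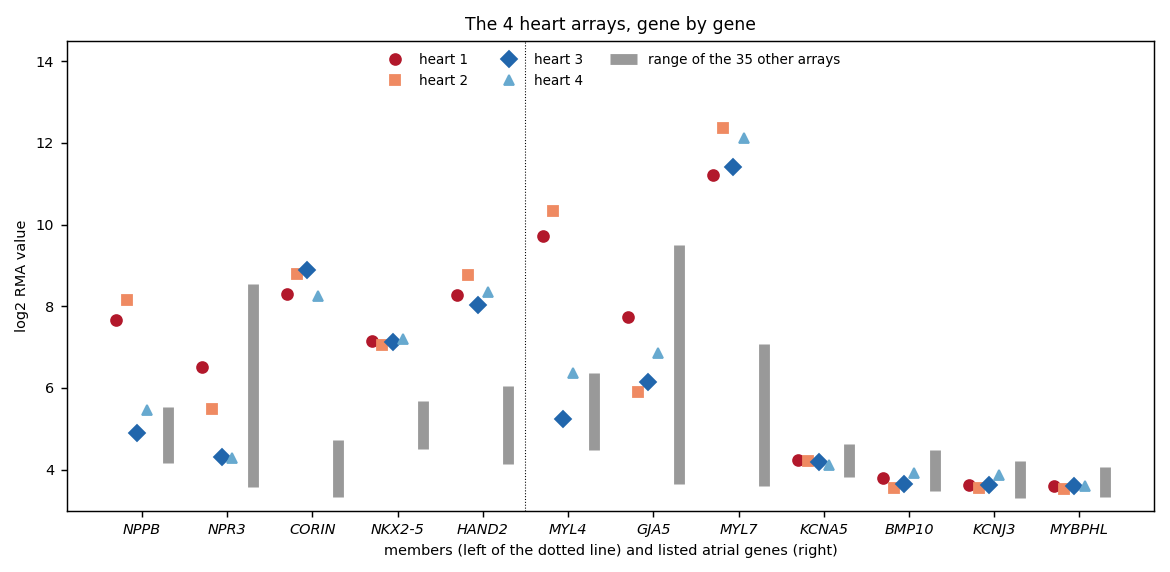
Log2 RMA value (vertical axis) on heart arrays 1 to 4 for 5 members and for 7 listed atrial genes, with the range of the 35 other arrays as a grey bar. NPPB, NPR3 and MYL4 are high on heart arrays 1 and 2 and low on 3 and 4, whereas CORIN, NKX2-5, HAND2 and MYL7 are above the grey bar on all 4.

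NPPC, the precursor of the C-type peptide, which acts locally in vessels, bone and brain, was low in every tissue, with tissue means between 3.75 and 4.25. It had 4.34, 4.08, 3.94 and 4.20 on the heart arrays and was not called there (difference 0.21, 95% interval 0.06 to 0.36, adjusted p = 0.0323). Its highest mean was in skeletal muscle, with 4.04, 4.01, 4.36 and 4.60, which overlap the other tissues. The difference from the other tissues was 0.34, a fold change of 1.26 (adjusted p = 0.000599), 1 of 14 probesets called higher in skeletal muscle against 7.06% of all probesets. The call was lost without skeletal muscle array 3 (0.30, adjusted p = 0.00801) or array 4 (0.22, adjusted p = 0.0236). Of its 45 pairs of tissues 1 was called, skeletal muscle over kidney (0.50, adjusted p = 0.000195), and the F test was not passed (adjusted p = 0.00112), although it was in 9 of 46 alternatives, among them those without skeletal muscle array 1 (adjusted p = 0.00042), skeletal muscle array 2 (0.000306) or heart array 3 (0.000586).

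CORIN had the lowest adjusted p of the 14 probesets in the heart contrast. Its heart arrays had 8.29, 8.80, 8.88 and 8.25, and the highest of the 35 other arrays, of pancreas, had 4.72. The mean was 8.56 ± 0.33 in heart (SD, n = 4) and 3.69 over the other tissues, a fold change of 29.2 (difference 4.87, SE 0.11, adjusted p = 7.74e-27). CORIN did not share the split of NPPB: arrays 2 and 3 were the higher pair. Pancreas came next with values between 3.96 and 4.72, a mean 4.33 below that of heart (adjusted p = 4.91e-21). Heart was higher than each of the 9 other tissues.

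NPR3, the clearance receptor, had its highest level outside the heart. On probeset 1 the 3 pancreas arrays had 8.55, 7.52 and 6.09, against a mean of 4.21 over the other tissues, a fold change of 9.01 (difference 3.17, adjusted p = 1.95e-08). The difference was 2.59 without pancreas array 1 and 3.82 without pancreas array 3, and was called both times. The other 3 probesets were also higher in pancreas: 5.58-fold for probeset 2 (adjusted p = 2.36e-10), 6.61-fold for probeset 3 (adjusted p = 8.76e-12) and 8.18-fold for probeset 4 (adjusted p = 9.4e-17). On probeset 3 the difference ran from 2.38 without pancreas array 1 to 3.35 without pancreas array 3. With GATA4, described below, 5 of the 14 probesets were higher in pancreas, where the contrast called 13.4% of all probesets. Pancreas array 3 was the lowest of the 3 on every NPR3 probeset. The median of the listed smooth muscle genes was also lowest on array 3, with 7.07, 6.56 and 5.10 on pancreas arrays 1 to 3. That of the fibroblast list was 8.18, 8.44 and 6.19, and the endothelial median was nearly level (5.36, 5.73 and 5.43). The fibroblast medians are the values of 1 gene, COL1A1 (6.19 to 8.44 in pancreas), so they do not measure fibroblast content. In pancreas DCN ranged from 9.07 to 10.09, LUM from 8.29 to 9.33, COL3A1 from 5.68 to 7.91 and PDGFRA from 3.56 to 3.71. The part of smooth muscle, fibroblasts and endothelium in the NPR3 values was not tested.

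On NPR3 probesets 1 and 4, lung and then heart followed pancreas, and on probeset 3 heart and then lung. On probeset 2 heart came second (4.79), followed by skeletal muscle (4.56) and lung (4.54). The 4 lung arrays had 6.48, 4.61, 6.40 and 4.46 on probeset 1, and arrays 1 and 3 were above arrays 2 and 4 on all 4 probesets. The heart arrays had 6.51, 5.48, 4.31 and 4.28, with arrays 1 and 2 above arrays 3 and 4 on 3 of the 4 probesets; the exception was probeset 3, with 3.86, 4.81, 3.94 and 3.98. The heart contrast was not called on any of the 4, with differences of 0.21 to 0.69 and adjusted p-values of 0.0818 to 0.318. On probeset 1 pancreas was higher than heart (heart minus pancreas −2.24, adjusted p = 0.000268). Lung minus pancreas on that probeset was −1.90 (adjusted p = 0.00167), and the pair was past the threshold without pancreas array 3 (pancreas minus lung 2.55, adjusted p = 6.92e-05), lung array 1, lung array 3 or heart array 1. On probeset 4 pancreas was higher than lung by 2.43 (adjusted p = 5.43e-12).

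Of the transcription factors among the members, HAND2 had the largest differences of heart from the other tissues, on both its probesets. HAND2, a basic helix-loop-helix factor, is needed for the right ventricle in mice and is also made by sympathetic neurons and by mesenchyme of the gut. Its probeset 1 had 8.27, 8.76, 8.02 and 8.35 on the heart arrays and at most 6.06 elsewhere, 11.6-fold higher (difference 3.54, SE 0.16, adjusted p = 6.58e-18). On probeset 2, whose suffix marks probes shared by several transcripts, the heart arrays had 9.80, 10.36, 9.89 and 10.15 and other arrays at most 7.44, 67-fold higher (difference 6.07, SE 0.28, adjusted p = 6.36e-18). No other array reached the heart arrays on either probeset. The same suffix is carried by the only probesets of CORIN and TBX5, by NKX2-5 probeset 2 and by NPR3 probeset 3.

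Outside the heart, HAND2 was unevenly spread. On probeset 2 the jejunum arrays had 5.97, 4.58, 7.44 and 5.33 and the liver arrays 6.08, 6.21, 5.07 and 5.50, whereas brain, kidney and lung arrays all lay between 3.08 and 3.30. Jejunum was 2.59-fold above the other tissues (adjusted p = 0.000331), 1 of 14 probesets called higher there against 6.12% of all, and liver 2.37-fold (adjusted p = 0.000816), 1 of 14 against 6.72% of all. The jejunum call was lost without jejunum array 1 (1.33, adjusted p = 0.00316) or jejunum array 3 (0.84, adjusted p = 0.0168). The liver call was lost without liver array 1 (1.13, adjusted p = 0.0098), liver array 2 (1.08, adjusted p = 0.0121) or liver array 4 (1.32, adjusted p = 0.00256), and barely, at adjusted p-values up to 0.00112, without each of many arrays of other tissues. On HAND2 probeset 1, neither tissue was called, and the pancreas arrays, at 6.06, 4.77 and 5.40, overlapped those of jejunum (5.75, 4.88, 6.06 and 4.97), while on probeset 2 pancreas had only 3.55, 3.77 and 3.53. The median of the listed smooth muscle genes on the jejunum arrays was 11.50, 10.74, 12.21 and 10.91, in the same order as HAND2. These are the values of 1 gene, ACTA2 (10.74 to 12.21 in jejunum), so they do not give the order of the whole list. ACTA2 was not called in jejunum (adjusted p = 0.00294 from limma), although 6 of the 7 listed genes were higher there. The list median was 9.94 to 11.06 on the lung arrays, whose HAND2 values were 3.13 to 3.22, and 5.14 to 5.87 in liver. The part of smooth muscle in the HAND2 values was not tested.

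**Figure D3:**
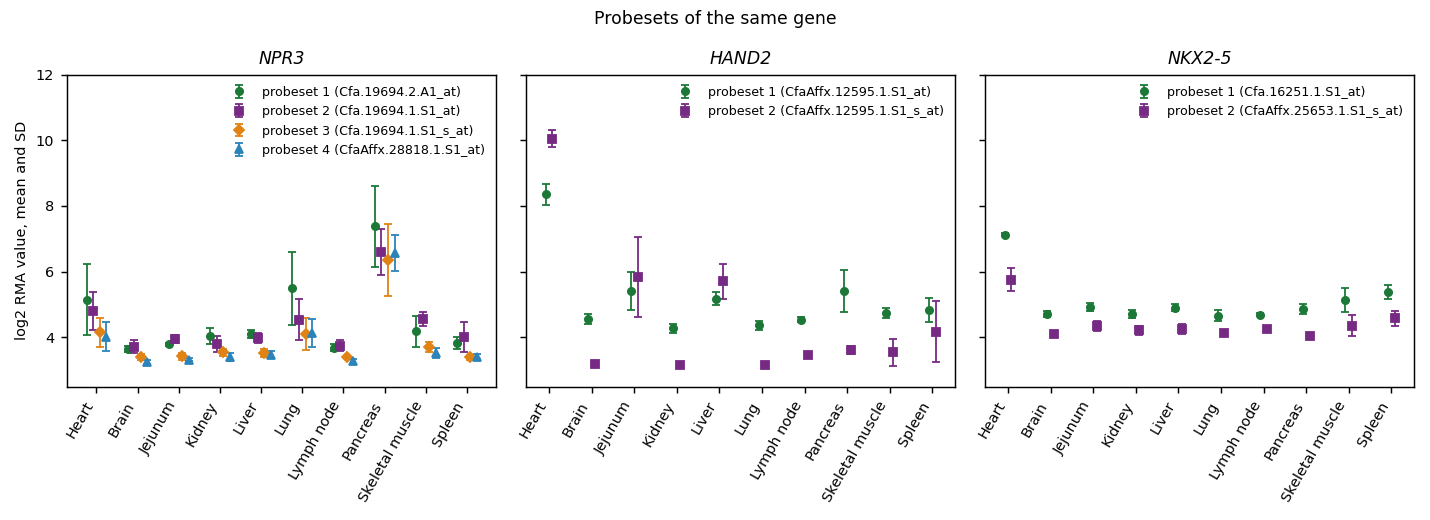
Mean and SD of log2 RMA values (vertical axis) by tissue for the 4 probesets of NPR3, the 2 of HAND2 and the 2 of NKX2-5, heart first; each tissue has 4 arrays, pancreas 3. All NPR3 probesets peak in pancreas and all HAND2 and NKX2-5 probesets in heart, while pancreas is among the higher of the other tissues on HAND2 probeset 1 and not on probeset 2.

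NKX2-5, a homeodomain factor present from the first heart precursors onward, had on its probeset 1 the smallest SD in heart of the 14 probesets. Its probeset 2 had an SD of 0.35 in heart. On probeset 1 the heart arrays had 7.16, 7.06, 7.12 and 7.20, a mean of 7.13 ± 0.06 (SD, n = 4) against 4.89 over the other tissues, a fold change of 4.75 (difference 2.25, SE 0.09, adjusted p = 8.43e-20). Spleen, in which NKX2-5 has a known role in organ formation in mice, came next with 5.39, 5.24, 5.68 and 5.26, lower than heart by 1.74 on the mean (adjusted p = 1.27e-13), a difference of 0.25 that was not called (adjusted p = 0.479) with the housekeeping scaling. On probeset 2 the heart arrays had 5.68, 5.31, 5.87 and 6.15 and other arrays at most 4.90, 2.84-fold higher (difference 1.50, SE 0.10, adjusted p = 1.61e-13). Heart was highest and spleen second on both probesets.

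GATA4, a zinc finger factor of heart, gut and gonads, was low throughout. The heart arrays had 4.12, 4.20, 4.21 and 4.56, a mean of 4.27 ± 0.20 against 3.74 over the other tissues, a fold change of 1.44 (difference 0.53, SE 0.07, adjusted p = 7.92e-07), and the direction turned to −0.59 when arrays were shifted to equal housekeeping genes. Pancreas had 4.31, 4.13 and 3.90 and overlapped heart (heart minus pancreas 0.16, adjusted p = 0.31). The pancreas contrast of GATA4 was called (0.35, adjusted p = 0.000875), but the call was lost without pancreas array 1 (0.25, adjusted p = 0.0383) or pancreas array 2 (0.34, adjusted p = 0.00757), and barely without many arrays of other tissues.

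The T-box factors showed no difference that was called. TBX5, the factor of the left ventricle, atria and forelimb, had 3.60, 3.42, 3.67 and 3.83 on the heart arrays and 3.23 to 3.77 on the others (difference 0.18, 95% interval 0.02 to 0.34, adjusted p = 0.0809). TBX20, a factor of the myocardium and the endocardial cushions, had 3.81, 3.98, 3.85 and 3.88 in heart and 3.63 to 4.21 elsewhere (difference 0.01, 95% interval −0.12 to 0.14, adjusted p = 0.93). Both lay near or below the array medians on every heart array, and 0 of the 45 pairs of tissues was called for either (0.242 for TBX5 and 0.914 for TBX20 as adjusted p of the F test). Values at this level do not say that the RNA was absent.

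**Figure D4:**
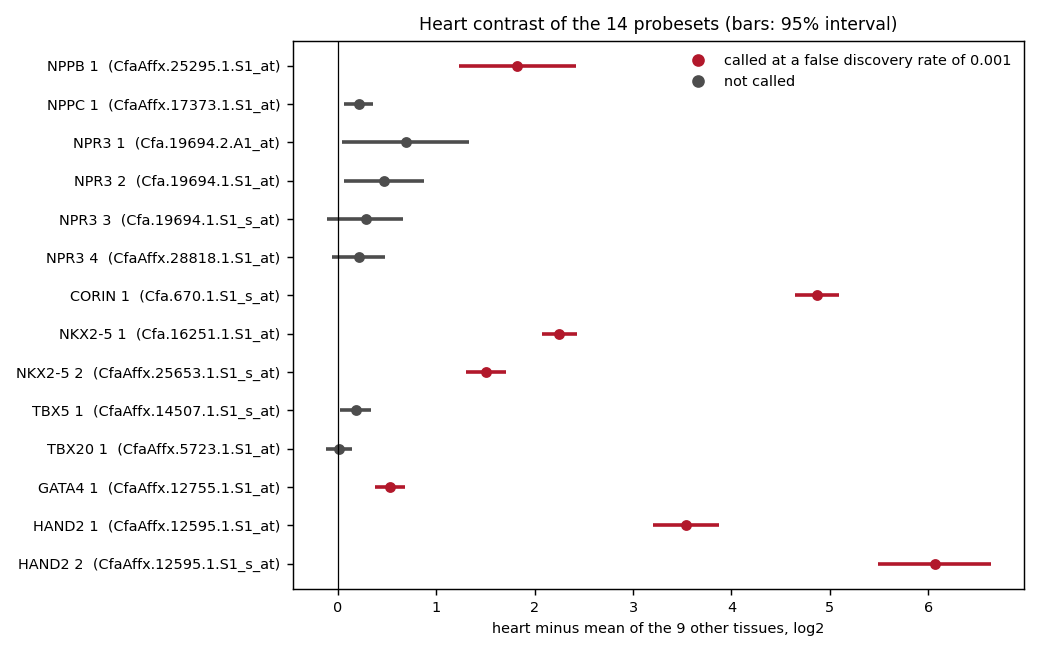
Difference of heart from the mean of the 9 other tissues (horizontal axis, log2) with its 95% interval for the 14 probesets, called ones in red. The 2 HAND2 probesets and CORIN lie farthest right, between 3.54 and 6.07, and TBX20 lies at 0.01.

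The rest of the natriuretic peptide pathway was followed in a list of 17 other genes, of which 15 had a probeset. In the heart contrast 2 were higher, 1 was lower and 12 were not called, with a median difference of 0.21 against −0.04 over all probesets. That contrast called 7.47% of all probesets higher and 6.55% lower. The 2 that were higher are the subunits of soluble guanylyl cyclase, which makes cyclic GMP in answer to nitric oxide and not to the peptides. GUCY1A1 was at 9.06 ± 0.47 (SD, n = 4) in heart, 9.59-fold higher (adjusted p = 4e-09), and GUCY1B1 at 9.72 ± 0.45, 5.84-fold higher (adjusted p = 4.11e-06), with a mean of 10.90 in brain. The 1 that was lower is MME, or neprilysin, which degrades the peptides: it was at 4.15 ± 0.13 in heart, a fold change of 0.223 (adjusted p = 3.83e-06), and highest in kidney (9.77) and jejunum (8.94). The signalling receptors were not called in heart: NPR2 had a difference of 0.72 (adjusted p = 0.00977) and NPR1 of 0.36 (adjusted p = 0.178), and the highest mean of both was in lung (6.66 for NPR2 and 5.52 for NPR1). At the low end, PRKG2 had −0.26, OSTN −0.14 and PRKG1 −0.12, and none was called.

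A list of 36 other transcription factors and cofactors of the heart, 31 with a probeset, held 12 that were higher in heart, 1 that was lower and 18 that were not called. Over all probesets, 7.47% were higher and 6.55% lower in heart. The median difference of the list was 0.04, against −0.04 over all probesets. Of the same list, 7 were higher in lung and 5 in skeletal muscle. The largest differences were those of ANKRD1, a stress-responsive protein of the sarcomere and nucleus, at 12.80 ± 0.15 in heart (461-fold, adjusted p = 1.74e-18), and SMYD1, a muscle methyltransferase, at 8.68 ± 0.15 (27.5-fold, adjusted p = 6.68e-14), both of which had their second highest mean in skeletal muscle (7.09 and 7.66). MEIS2 was 4.63-fold higher (adjusted p = 0.000757) and IRX5 4.10-fold (adjusted p = 0.000232), the second of which had a higher mean in lung (9.11). GATA6, a paralog of GATA4, was at 6.01 ± 0.76 in heart, 3.86-fold higher (adjusted p = 2.13e-10). HAND1, the paralog of HAND2, was 1.47-fold higher (adjusted p = 3.42e-05), and MYOCD, or myocardin, 1.68-fold (adjusted p = 1.96e-07). NR2F2, a nuclear receptor of atria and veins, was lower in heart, at 4.80 ± 0.24, a fold change of 0.392 (adjusted p = 0.000455). MEIS1 (−0.98, adjusted p = 0.0225), TBX4 (−0.34) and TBX1 (−0.22) were not called.

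Profiles were also set side by side over the 10 tissue means, as a description in which heart weighs most. Pearson's r was 0.96 between CORIN and NPPB, 0.95 between NKX2-5 and each of them, and 0.96 between HAND2 and CORIN, whereas NPR3 had 0.28 with CORIN and 0.10 with NPPB. Of 15114 other symbols, the one most like NPPB was TNNT2 (r = 0.992), the cardiac troponin T, with MYBPC3, the cardiac myosin-binding protein, among its first 5 (0.987). MYBPC3 was among the first 5 of CORIN too (0.991), led by the probeset annotated OR51F23 (0.998). LRRC10, a leucine-rich repeat protein of heart muscle, was the most like NKX2-5 (0.976), and MYOCD the most like HAND2 (0.969). Those most like GATA4 were LOC484431 (0.949) and HAND1 (0.944). For NPR3 they were FAM166B (0.972) and RABAC1 (0.965), for NPPC USP13 (0.965), for TBX5 TEAD2 (0.921) and for TBX20 SMOC2 (0.893), the last 2 for probesets with hardly any difference between tissues. The 10 points share the arrays and their normalization, and the profiles of NPPB, CORIN, NKX2-5 and HAND2 are set mainly by heart.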

How the data were processed

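RNA of 10 canine tissues was measured on 39 Affymetrix Canine Version 2.0 arrays, 4 per tissue and 3 for pancreas. The authors made the deposited log2 values in Partek from the probe intensities: the probes were adjusted for their GC content and sequence, the background was corrected by RMA, arrays were quantile normalized, and probes were summarised by median polish. Quantile normalization gives every array the same distribution, so a value counts only relative to other probesets, and low signals are compressed. The scan date, a random factor in the methods of the study, is not in the labels and was not used here.

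The values were used as deposited. Tissues were taken from the sample labels and gene symbols from the probe table of the platform. Of 42860 probesets, 29254 have 1 symbol, 439 several and 13167 none; all entered the fit. In limma (version 3.58.1, R 4.3.3) each of the 10 tissues had its own mean, with all 39 arrays in 1 fit. The F test over tissues, the contrast of each tissue with the mean of the 9 other tissue means, and the 45 pairs of tissues had their p-values adjusted over all probesets (Benjamini-Hochberg; for the pairs, over all pairs as well) and called at 0.001. The fit was tested on simulated data in which a probeset had the same spread in all tissues, unlike NPPB. In the heart contrast it recovered 68.7% of 2-fold, 92.5% of 4-fold and 100% of 16-fold changes, with 0 false calls. Fold changes are 2 to the power of a log2 difference. SDs are between arrays. p-values measure the spread between these arrays only, and their number limits the precision.

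Every probeset of a member was reported, and probeset 1, that of the highest mean, stands for a gene where none is named. For each member the 5 symbols with the highest Pearson's r over the tissue means were found, and from each list its counts in heart and the 4 largest and 4 smallest differences. The members and lists were chosen with earlier results of these data known, so no list was tested. Levels were not compared between probesets. The alternatives were other variance estimates, the replicate number as a block, other scalings, a filter on dim probesets, another reference for the fold steps, another probeset per gene and each array left out; 2 were added after seeing the data, the removal of 3 arrays that stand apart (skeletal muscle 2 and 4 and spleen 3) and array weights. No genome positions or sequences are given, since the RefSeq table used for names has another assembly than the study.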

Additional observations from a re-analysis of the deposited data

Results flagged for a closer look

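Among 126 groups of 4 arrays (14 probesets in 9 tissues), 5 held an array whose gap to the nearest of the others was a larger share of the range than the 95% limit of Dixon's test, which chance passes in about 1 group of 20. Heart array 2 had 4.81 for NPR3 probeset 3, and the other heart arrays had 3.86 to 3.98. Spleen array 3 had 3.51 for NPR3 probeset 4, and the other spleen arrays had 3.36 to 3.38. Liver array 1 had 3.59 for TBX5, and the other liver arrays had 3.37 to 3.41. For TBX20, lung array 1 had 4.11 against 3.82 to 3.86 on the other lung arrays, and spleen array 3 had 4.21 against 3.79 to 3.85 on the other spleen arrays. The heart arrays of NPPB, which fell into a high and a low pair, do not pass this limit. Dixon's test looks for 1 array apart from the rest and cannot flag a split into pairs, so it does not bear on that split.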

How the results depend on the processing

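The limits lie in scaling and in low signals. Scaling the arrays to the same median over the housekeeping list (13 of 15 genes with a probeset) moved all values of an array by the same amount, on average by −0.98 in heart and by 1.23 in pancreas, with different amounts for arrays of 1 tissue. It left 4 of the 14 probesets higher in heart, against 7 as reported, and called 118 pairs of tissues, against 64. It turned the heart difference of GATA4 to −0.59, NPPC to −0.91, NPR3 to −0.43, TBX5 to −0.94 and TBX20 to −1.11, and that of GATA4 between heart and pancreas to −2.05. By construction, all probesets of an array move together. The shift follows the level of the gene in the middle of the list, which was not the same gene in every tissue. Gene by gene, the listed genes had a median difference of −0.14 in heart and −0.19 in pancreas. The shifts are therefore no measure of a common change of these genes, and the losses and reversals under this scaling carry that limit. Leaving out each array in turn gave −0.02 to 0.04 for TBX20 in heart, below 0 without heart array 2; it gave 10 to 12 probesets in the F test, 7 higher in heart each time, 3 enriched each time, 2 to 3 selective, and 55 to 71 pairs.

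Of 1317 values of single genes under alternatives, 1216 kept direction and side of the threshold, 72 lost the call, 22 gained it and 7 turned. The calls of HAND2 probeset 2 in liver and of GATA4 in pancreas, both close to the threshold, were lost in 32 of 47 and 29 of 46 alternatives. The filter on dim probesets removed GATA4, NPPC, TBX5 and TBX20.

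The paper took the organs from the same 4 dogs, but the labels do not say whether a replicate number stands for 1 dog. The numbers carried some shared signal: 29 of 45 pairs of tissues had correlated deviations above 0.1 (median 0.130, range −0.050 to 0.295). Of 39 arrays, 30 lay closest to their own number, more than a random choice among 4 numbers would give on average. The main fit takes all arrays as independent, so its p-values leave out any such pairing. With the replicate number as a block, 10 probesets passed the F test, 7 were higher in heart, 3 enriched, 3 selective and 67 pairs were called. HAND2 probeset 2 in liver lost its call with the block (1.25, adjusted p = 0.00105), and the other 27 of the 28 single values refitted with the block kept theirs.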
